A study of Mus musculus with 25 samples.

Results

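The comparison described here set chemical co-treatment against demethylase mRNA injection as ways of treating mouse embryos made by somatic cell nuclear transfer (SCNT). It was chosen by treatment: the 6 libraries of SCNT embryos given latrunculin A, trichostatin A (TSA) and 1 of 3 inhibitors of the histone methyltransferase G9a (named CC_TG by the study) were set against the 4 libraries of SCNT embryos injected with *Kdm3a* or *Kdm4d* mRNA (SCNT-*Kdm*), which makes 10 of the 25 libraries of the series. The values that follow are for genes, and *Kdm3a* and *Kdm4d* themselves were left out because their injected mRNA is sequenced too. The CC_TG embryos received TSA at 25 nM for 8 h and, for 24 h and at 1 µM, the compound labelled R701 (RK-701 in the study; CC_TG-RK701), A366 (CC_TG-A366) or UNC0638 (CC_TG-UNC0638), in 2 libraries each. The SCNT-*Kdm* embryos received 10 pL of mRNA at 5 to 6 h after activation, with *Kdm3a* in 2 libraries (SCNT-*Kdm3a*) and *Kdm4d* in 2 (SCNT-*Kdm4d*), and neither TSA nor a G9a inhibitor. Both arms were made from BDF1 oocytes and BDF1 cumulus cells labelled as wild type, so all SCNT embryos carry donor nuclei of one adult cell type. The drug that blocks actin after nuclear transfer was latrunculin A in CC_TG and cytochalasin B in SCNT-*Kdm*, so the treatment and this drug cannot be told apart in the direct comparison. Each arm has an untreated control with its own drug, CC_cont with latrunculin A and SCNT-cont with cytochalasin B, in 2 libraries each, and embryos of in vitro fertilization (IVF; B6N oocytes and DBA/2 sperm, 4 libraries) served as a reference. No group was injected without mRNA, and the labels give no batch or date. Libraries were made from polyadenylated RNA of pools of 5 to 10 late two-cell embryos collected at 28 to 29 h, and in such pools fewer cells that express a gene and less RNA per cell cannot be told apart.

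Methylation of lysine 9 of histone H3 (H3K9) keeps genes silent, and donor nuclei bring it into the oocyte. G9a, encoded by *Ehmt2*, and its partner GLP, encoded by *Ehmt1*, add mono- and dimethyl marks, which the inhibitors block. KDM3A removes these marks, whereas KDM4D acts on di- and trimethyl H3K9. TSA blocks histone deacetylases and so raises histone acetylation. In mouse two-cell embryos the embryonic genome becomes active, with a wave of transcription from the endogenous retrovirus MERVL and from families such as *Zscan4*, *Obox* and *Usp17l*. Many germline genes are silent in somatic cells through DNA methylation, H3K9 methylation by G9a and GLP, and repressors such as PRC1.6, whose E2F6 and MAX/MGA subunits bind GCGGGAA and CACGTG.

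Reads on genes numbered 13992805 to 15602397 per library in CC_TG and 13240378 to 21188688 in SCNT-*Kdm*, within the 6662727 to 21188688 of all 25 libraries. *Kdm3a* held 3122 and 2751 CPM (counts relative to all reads on genes) in the SCNT-*Kdm3a* libraries and 117 to 214 in CC_TG, and *Kdm4d* held 16854 and 11283 in the SCNT-*Kdm4d* libraries and 1.77 to 4.36 in CC_TG, as the labels say. In every library of both arms the MERVL-linked two-cell markers summed to at least 2210 normalized counts (CPM after TMM scaling, the unit of all other levels given here). Of 30 cumulus cell genes, 5 (*Amh*, *Foxl2*, *Inha*, *Lum* and *Ptx3*) lay below the mean of 1 read needed for a test, and the 25 others summed to 244 to 526 in CC_TG and 272 to 359 in SCNT-*Kdm*. The 2 libraries of a group are taken as replicates because the labels number them so, and nothing states that they came from separate experiments, so that p values measure the spread between these pools only. A gene was called when its adjusted p in edgeR's quasi-likelihood test was under 0.05 with a change of more than 2-fold.

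Promoters are shown for the 4 called members of the germline and two-cell lists with the largest absolute log2 fold change and a promoter in the RefSeq table. These are the germline genes *Hormad1*, *Fkbp6* and *Mov10l1*, higher in CC_TG, and *Zscan4b*, lower in CC_TG. Of 9 called germline genes with a promoter there, 6 held CACGTG. *Zscan4b* held neither motif, and nor did the called two-cell genes *Zscan4f*, *Usp17la* and *Usp17ld* or the germline genes *Mei1* and *Tdrkh*. Each sequence runs from 250 bases before to 50 bases after the transcription start, 5′ to 3′ on the strand of the gene, in build GRCm38.p6, and capitals mark CACGTG or GCGGGAA on either strand. That of *Hormad1* lies at chr3:95559427-95559726 on the plus strand, that of *Fkbp6* at chr5:135349995-135350294 on the minus strand, that of *Mov10l1* at chr15:88982744-88983043 on the plus strand, and that of *Zscan4b* at chr7:10905001-10905300 on the minus strand.
Hormad1: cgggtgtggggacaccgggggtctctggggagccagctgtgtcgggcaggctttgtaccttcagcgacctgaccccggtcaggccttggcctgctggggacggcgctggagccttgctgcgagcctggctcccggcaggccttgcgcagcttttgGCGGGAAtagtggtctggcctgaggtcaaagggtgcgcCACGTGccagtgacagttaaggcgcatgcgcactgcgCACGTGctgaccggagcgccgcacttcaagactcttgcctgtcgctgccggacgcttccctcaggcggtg
Fkbp6: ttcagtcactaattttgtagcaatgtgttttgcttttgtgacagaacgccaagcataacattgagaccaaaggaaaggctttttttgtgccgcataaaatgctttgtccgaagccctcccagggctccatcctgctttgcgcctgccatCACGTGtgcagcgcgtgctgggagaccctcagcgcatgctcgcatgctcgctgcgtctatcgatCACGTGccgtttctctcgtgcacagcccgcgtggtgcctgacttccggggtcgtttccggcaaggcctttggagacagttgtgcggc
Mov10l1: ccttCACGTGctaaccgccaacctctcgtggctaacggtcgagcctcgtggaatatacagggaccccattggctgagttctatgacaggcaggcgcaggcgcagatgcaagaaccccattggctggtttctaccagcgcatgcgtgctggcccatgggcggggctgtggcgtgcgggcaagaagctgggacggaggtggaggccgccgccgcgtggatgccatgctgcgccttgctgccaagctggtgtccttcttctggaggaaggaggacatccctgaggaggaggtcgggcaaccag
Zscan4b: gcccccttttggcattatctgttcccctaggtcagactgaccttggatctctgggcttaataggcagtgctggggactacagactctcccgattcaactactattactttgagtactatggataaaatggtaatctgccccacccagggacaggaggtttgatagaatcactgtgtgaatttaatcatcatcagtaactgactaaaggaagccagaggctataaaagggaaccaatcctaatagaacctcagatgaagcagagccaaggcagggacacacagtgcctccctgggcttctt
The *Hormad1* window holds 2 copies of CACGTG, which reads the same on both strands, and 1 of GCGGGAA, and it has a GC content of 67.3% with 24 CpG dinucleotides. The *Fkbp6* window has 2 copies of CACGTG, 55.0% GC and 21 CpG, and the *Mov10l1* window has 1 copy, 63.3% GC and 20 CpG. The *Zscan4b* window has 47.0% GC and 1 CpG, against medians of 52.7% and 7 over the 27025 promoters of the table. CACGTG was found in 7.24% of all these promoters, in 16 of the 54 germline and meiosis genes with a promoter (29.6%) and in 6 of the 9 called ones (66.7%). GCGGGAA was found in 4.66%, in 15 of 54 (27.8%) and in 4 of 9 (44.4%). Both strands were searched, a copy of CACGTG and a copy of GCGGGAA can overlap by at most 1 base, and a match describes these letters only.

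Between the arms, 453 of 25792 autosomal genes were called (1.76%), of which 233 (0.903%) were higher and 220 (0.853%) lower in CC_TG. The higher genes included 10 germline and meiosis genes and no member of the *Zscan4*, *Obox* or MERVL-linked lists, and the lower genes included *Tcl1b1* to *Tcl1b5*, *Zscan4b*, *Zscan4f* and *Sfmbt2*. The median change of the higher genes was 1.52 on the log2 scale and that of the lower genes −1.55, beside −0.02 over all genes tested. The levels of all 6 CC_TG libraries lay above all 4 SCNT-*Kdm* libraries for 131 of the 233 higher genes and below them for 97 of the 220 lower genes. Over all genes, 2.24% had arms that did not overlap with CC_TG higher and 2.05% with CC_TG lower. Protein-coding genes made up 190 of the 233 higher genes (81.5%) and 131 of the 220 lower ones (59.5%), against 62.9% of all genes tested. The share called was 4.24% among genes with a mean level of 5 to 20 and 0.414% among those at up to 1. Leaving out single libraries gave 252 to 488 calls, and the count fell by more than 1.5 times without SCNT-*Kdm3a* replicate 1 (270), SCNT-*Kdm4d* replicate 1 (252) or 2 (289), CC_TG-RK701 replicate 2 (267) or CC_TG-UNC0638 replicate 1 (293). A fit that held these 10 libraries as 2 arms, without their 5 groups, gave 176 calls (100 higher, 76 lower), and 702 genes (317 higher, 385 lower) were called without the UNC0638 group.

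Either mRNA alone gave a different count. Against SCNT-*Kdm3a*, 756 genes were called (2.93%), 344 of them higher (1.33%) and 412 lower (1.6%) in CC_TG, and against SCNT-*Kdm4d* 169 were called (0.655%), 62 higher (0.24%) and 107 lower (0.415%). The injected groups themselves differed in 82 genes (0.318%), 36 higher (0.14%) and 46 lower (0.178%) with *Kdm4d*. By inhibitor, CC_TG-RK701 differed from SCNT-*Kdm* in 409 genes (1.59%), 243 of them higher (0.942%) and 166 lower (0.644%). CC_TG-A366 differed in 315 (1.22%), 154 higher (0.597%) and 161 lower (0.624%), and CC_TG-UNC0638 in 198 (0.768%), 152 higher (0.589%) and 46 lower (0.178%). These comparisons share libraries, and their counts are given side by side for that reason.

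Distances between libraries were compared within and between the arms. In log2(TPM + 1) over 16573 genes, pairs of libraries from different arms were at a mean distance of 102 and pairs within an arm at 92.0, a difference of 10.2 (exact two-sided permutation test over the 10 libraries, p = 0.00952, with 0.00476 the smallest p that 210 permutations can give). This p takes the 10 libraries as exchangeable although they come in 5 groups of 2, and pairs of the same group, at 77.7 to 95.4, are among the pairs within an arm. The nearest library of each of the 10 belonged to its own arm, and in 7 of them to its own group. Within CC_TG the RK-701 and A366 libraries were at a mean distance of 80.5 and both lay farther from UNC0638, at 99.6 and 98.4. The RK-701 libraries lay at 96.3 from SCNT-*Kdm4d* and at 110 from SCNT-*Kdm3a*, and the injected groups at 98.7 from each other, so that the mean distance of SCNT-*Kdm4d* to the RK-701 and A366 (96.5) libraries was below that to SCNT-*Kdm3a*.

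**Figure D1:**
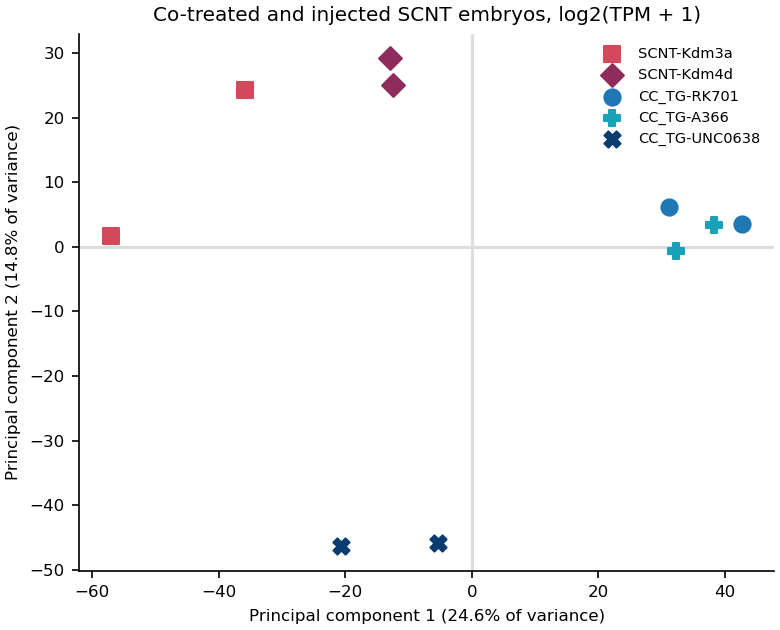
Principal components 1 and 2 of the 6 CC_TG and 4 SCNT-*Kdm* libraries, from log2(TPM + 1), with 1 point per library and the share of variance on each axis (24.6% and 14.8%). The 4 RK-701 and A366 libraries sit at 31.1 to 42.7 on component 1 and the *Kdm3a* libraries at −57.0 and −35.9, whereas the UNC0638 libraries lie apart on component 2, at −45.8 and −46.4.

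The untreated controls bear on the drug that differs between the arms. CC_cont and SCNT-cont differed in 3 genes (0.0116%), *Cblb* higher (0.00388%) and *Gm9519* and *Sva* lower (0.00775%) in CC_cont, with 2014 genes at an unadjusted p under 0.05 and 57 calls by DESeq2. The count was 208 without CC_cont replicate 1, 1 without CC_cont replicate 2, and 13 and 5 without SCNT-cont replicates 1 and 2, and the median standard error was 0.70, against 0.47 between the arms. Of the 233 genes higher in CC_TG, 146 (62.7%) were also higher in CC_cont than in SCNT-cont, beside 50.6% of all genes, and 36 (15.5%) had an unadjusted p under 0.05 in that direction, beside 4.16%. Of the 220 lower genes, 129 (58.6%, beside 47.1%) were lower in CC_cont, 31 of them (14.1%, beside 3.64%) at an unadjusted p under 0.05. Taking out the genes with an unadjusted p under 0.05 in the same direction between the controls left 386 calls, 197 higher and 189 lower. *Gm9519*, a predicted gene, was the called gene that also was called between the controls. Its levels were 1.63 and 1.58 in CC_cont and 11.6 and 9.35 in SCNT-cont, and 4.33 to 5.31 in the RK-701 and A366 libraries, 31.1 and 28.5 with UNC0638 and 23.0 to 40.9 in SCNT-*Kdm*. The UNC0638 libraries thus reached the injected ones while the other 4 stayed below them.

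**Figure D2:**
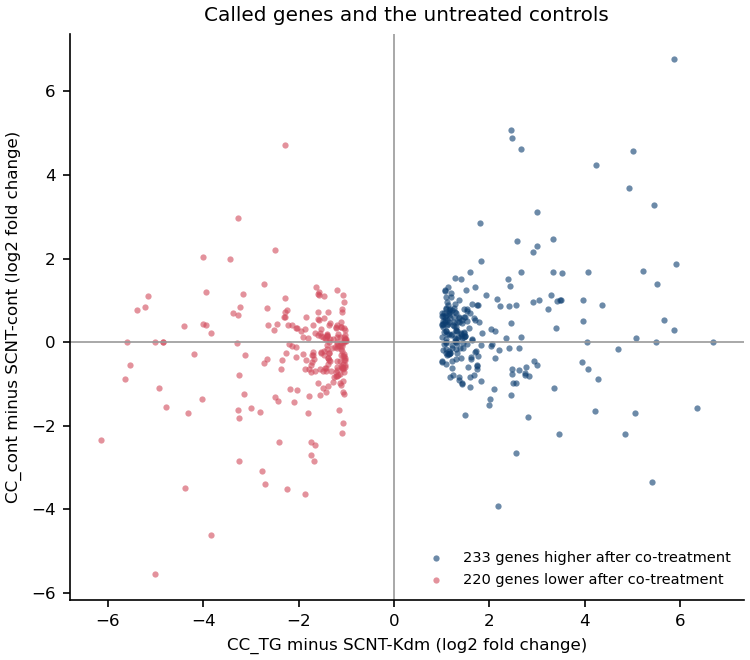
The log2 fold change between CC_TG and SCNT-*Kdm* (x axis) and between the untreated controls CC_cont and SCNT-cont (y axis) for the 233 genes called higher (blue) and 220 called lower (red), 1 point per gene. The points spread to both sides of 0 on the y axis, with medians of 0.26 for the higher and −0.21 for the lower genes. Genes with no reads in a control take extreme values.

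When each arm was taken relative to its own control within one model, 2 genes were called (0.00775%), *Hormad1* and *Elovl4*, both higher in CC_TG, with 2284 genes at an unadjusted p under 0.05, 98 calls by DESeq2 (64 higher, 34 lower) and a median standard error of 0.87. Leaving out single libraries gave 1 to 56 calls. Without CC_cont replicates 1 and 2 there were 56 and 10, without SCNT-cont replicates 1 and 2 there were 5 and 8, and without CC_TG-A366 replicate 2 or CC_TG-UNC0638 replicate 2 there were 9 and 4. There was 1 call without SCNT-*Kdm4d* replicate 2, CC_TG-RK701 replicate 2 or CC_TG-A366 replicate 1. The median difference of the 233 higher genes was 1.33 by this measure and that of the 220 lower genes −1.34, beside −0.04 over all genes. Against their own controls, the higher genes had a median of 0.57 in CC_TG and −0.73 in SCNT-*Kdm*, and the lower genes −1.01 and 0.33, beside −0.16 and −0.09 over all genes. Both sets were called for the difference between the arms, which these measures contain, so these medians are a description only.

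*Hormad1* encodes a HORMA domain protein of the meiotic chromosome axis and lies on chromosome 3 at 95559677 to 95587671 (mm10). Its level was 53 and 120 with RK-701, 120 and 82.5 with A366 and 104 and 93.0 with UNC0638, and 18.2, 17.7, 15.9 and 16.0 in the SCNT-*Kdm* libraries. The lowest co-treated library was above the highest injected one. The mean was 95.4 ± 25.5 (SD, n = 6) against 17 ± 1.15 (SD, n = 4), a log2 fold change of 2.49 ± 0.25 (SE; edgeR adjusted p = 6.37e-06). CC_cont held 11.6 and 24.7, SCNT-cont 27.3 and 43.3 and IVF a mean of 202, so that co-treated embryos were above and injected embryos below their own controls, by 2.41 and −1.06 on the log2 scale. The difference of these changes was 3.47 ± 0.45 (SE; adjusted p = 0.000735). The log2 difference was 2.35, 2.58 and 2.54 for RK-701, A366 and UNC0638 against SCNT-*Kdm*, and the call was kept in each fit without a single library.

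*Elovl4* encodes an elongase of very long chain fatty acids and lies on chromosome 9 at 83778692 to 83806277. It held 8.98 and 10.5 for RK-701, 6.37 and 7.18 for A366, 4.95 and 7.96 for UNC0638, and 0.944, 1.80, 3.80 and 0.913 in SCNT-*Kdm*. These values do not overlap. The log2 fold change was 2.09 ± 0.33 (SE; adjusted p = 0.000445) and, with controls subtracted, 3.22 ± 0.55 (adjusted p = 0.0411). Here CC_TG stood at its control level (10.0 and 5.69 in CC_cont, log2 change −0.07) and SCNT-*Kdm* below its own (19 and 15.7 in SCNT-cont, log2 change −3.29).

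The germline and meiosis list, like the other lists made here, was chosen with earlier results of these data known. Its share of calls beside that of all genes is therefore a description only. All genes also include 10376 at a mean level of up to 1, of which 0.414% were called. In each library of the arms 51 to 57 of the 64 list members lay above 1. Of 64 germline and meiosis genes tested, 10 were higher in CC_TG (15.6%, against 0.903% of all genes) and 0 lower, with a median of 0.28. Besides *Hormad1* these were *Mov10l1* (a helicase of piRNA production), *Fkbp6* and *Tdrkh* (cofactors of the piRNA pathway), *Sycp1* and *Tex12* (parts of the synaptonemal complex), *Mei1* (needed for meiotic double-strand breaks), *Majin* (which attaches telomeres to the nuclear envelope in meiosis), *Slc25a31* (a germline ADP/ATP carrier) and *Rpl10l* (a ribosomal protein of male germ cells). *Tex12* held a lowest, median and highest level of 52.2, 97.4 and 125 in CC_TG and 44.4, 45.5, 26.5 and 35.8 in SCNT-*Kdm*, a log2 fold change of 1.33 ± 0.20 (adjusted p = 0.000296). *Rpl10l* held 18.4, 25.7 and 34.5 against 7.82, 7.88, 8.32 and 10.1 (1.54 ± 0.22, adjusted p = 0.000261). *Slc25a31* held 19.4, 23.4 and 32.9 against 8.29, 13.1, 7.19 and 5.48 (1.59 ± 0.28, adjusted p = 0.00158). For these 3 genes the arms did not overlap, and IVF embryos held means of 91.2, 130 and 49.3.

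*Mei1*, *Majin* and *Tdrkh* also had arms that did not overlap, with log2 fold changes of 1.75, 1.49 and 1.09. *Sycp1*, *Fkbp6* and *Mov10l1* overlapped. *Mov10l1* held 5.19 to 9.04 in CC_TG, 1.57 and 7.28 in SCNT-*Kdm3a* and 0.0808 and 0.351 in SCNT-*Kdm4d*, so its log2 fold change of 2.75 (adjusted p = 0.0049) came to 4.86 against *Kdm4d* and 0.64 against *Kdm3a*. *Fkbp6* held 31.3 to 82.7 in CC_TG, where CC_cont held 57.8 and 16.1, and 5.61, 17.3, 9.69 and 38.7 in SCNT-*Kdm* (1.85, adjusted p = 0.00594). *Sycp1* held 20.1 to 96.5 against 11.8, 22.4, 25.2 and 17.4 (1.45, adjusted p = 0.00479), while IVF embryos held a mean of 506. Some of these calls rested on single libraries: *Mov10l1* was not called without SCNT-*Kdm4d* replicate 1 (2.43), *Fkbp6* without replicate 1 of SCNT-*Kdm3a* (1.54) or SCNT-*Kdm4d* (1.51), *Sycp1* without CC_TG-RK701 replicate 2 (0.94), *Tdrkh* without CC_TG-A366 replicate 1 (0.93), and *Majin* in 7 of the 10 fits without a library (1.28 to 1.67 in those).

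The germline list was also set against the controls. In CC_TG against CC_cont, 13 of the 64 were higher and 2 lower, with a median of 0.16 (of all genes 10.2% were called, 3.61% higher and 6.63% lower), and in SCNT-*Kdm* against SCNT-cont 1 was higher and 6 were lower, with a median of −0.18 (of all genes 4.81%, with 2.3% higher and 2.52% lower). Between CC_cont and SCNT-cont none of the 64 was called and the median was −0.14. Against SCNT-*Kdm*, RK-701 and A366 each had 9 higher, UNC0638 had 6, and none had a lower one. Of all genes 0.942%, 0.597% and 0.589% were higher with RK-701, A366 and UNC0638. By mRNA, 8 were higher and 1 lower against *Kdm3a*, beside 1.33% and 1.6% of all genes. Against *Kdm4d* 7 were higher and 0 lower, beside 0.24% and 0.415%. With controls subtracted, 1 of the 64 was called (*Hormad1*), and the median was 0.39 beside −0.04 over all genes. The 3 germline genes that the study names for its RNA-seq, as derepressed by the dual treatment, were all called higher in CC_TG against CC_cont (median 1.82). In SCNT-*Kdm* against SCNT-cont 1 of them was called higher (median 0.85). Between the arms none was called in edgeR's test, 2 of them had an unadjusted p under 0.05, and DESeq2 called 1. *Terb2*, of the telomere attachment complex, held 104 to 145 in CC_TG and 88.4, 82.3, 86.6 and 93.2 in SCNT-*Kdm*, which do not overlap (log2 fold change 0.45, adjusted p = 0.11). *Cstf2t*, a testis polyadenylation factor, had 0.30 (adjusted p = 0.357), and *Cox7b2*, a cytochrome c oxidase subunit of testis, 3.14 ± 0.91 (adjusted p = 0.0528) at 0.464 to 4.05 in CC_TG and 0 to 0.702 in SCNT-*Kdm*.

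**Figure D3:**
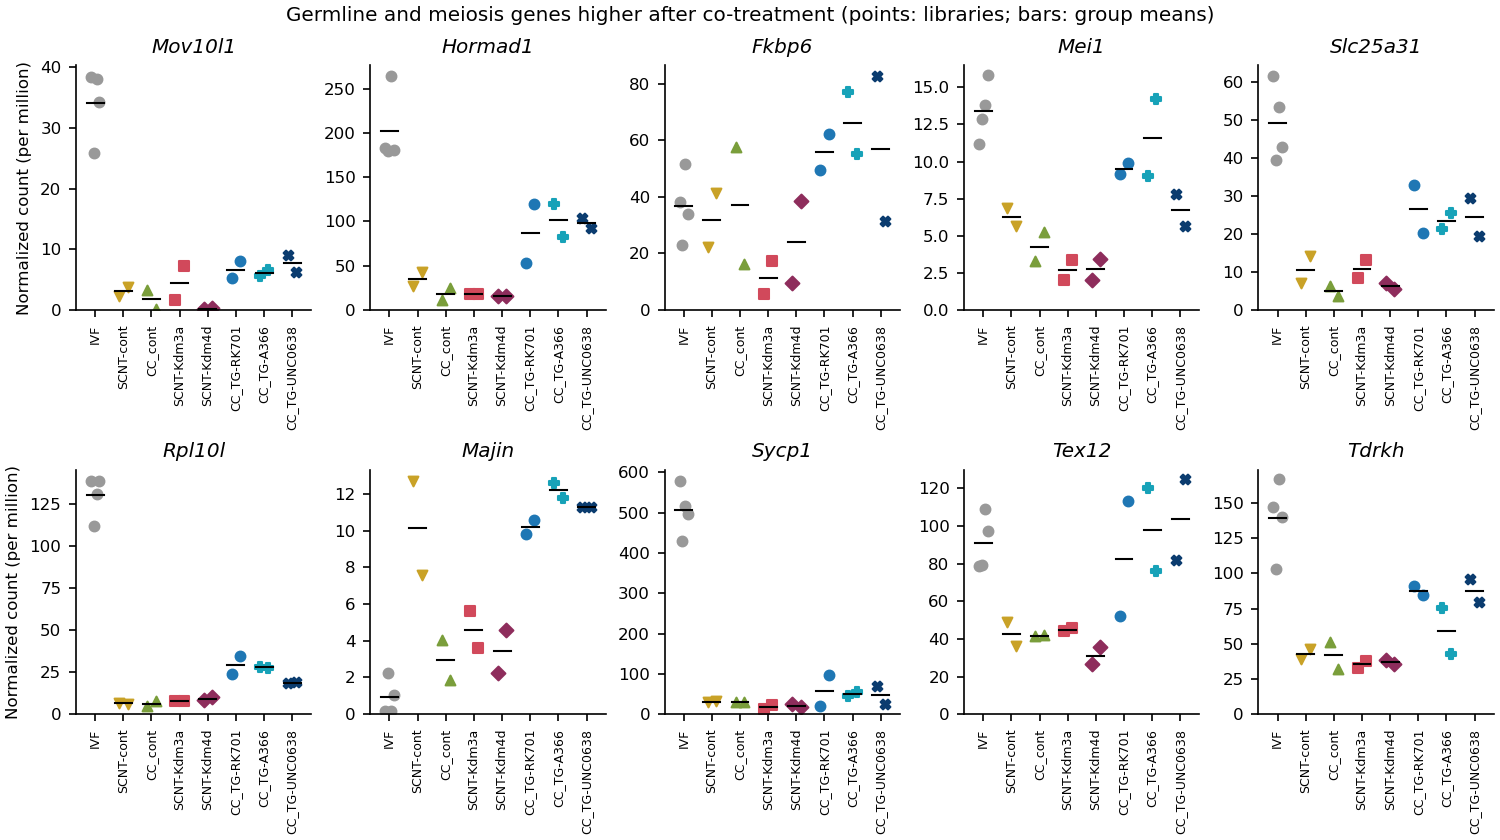
Normalized counts (CPM) of the 10 germline and meiosis genes called higher in CC_TG, by group, with 1 point per library and a bar at each group mean. *Hormad1* lies at 53 to 120 in CC_TG and 15.9 to 18.2 in SCNT-*Kdm*, and *Mov10l1* is split within SCNT-*Kdm*, at 1.57 and 7.28 with *Kdm3a* and 0.0808 and 0.351 with *Kdm4d*.

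The *Zscan4* and MERVL-linked genes of the two-cell wave were split within CC_TG by inhibitor. The 9 *Zscan4* genes, which encode zinc finger proteins of the two-cell stage, summed to 72.2 and 123 with RK-701, 78.6 and 76.4 with A366, 350 and 201 with UNC0638, 287 and 270 with *Kdm3a* and 215 and 217 with *Kdm4d*. The UNC0638 libraries overlapped the injected ones, and the RK-701 and A366 libraries lay below all of them. All 9 genes had a log2 fold change below 0 between the arms, with a median of −1.38, and 2 were called lower (22.2%, against 0.853% of all genes). *Zscan4b* held 0.232 and 0.279, 0 and 0, and 1.41 and 0.442 with the 3 inhibitors in that order, and 2.57, 1.54, 1.70 and 1.76 in SCNT-*Kdm*, a change of −3.84 ± 0.75 (adjusted p = 0.00445). It held 0 in both CC_cont libraries and 0.194 and 0.240 in SCNT-cont, too few reads for a control difference (−4.61, not called), and its sign turned with controls subtracted (0.77). *Zscan4f* held 2.09 to 3.45 in the RK-701 and A366 libraries, 22.4 and 7.81 with UNC0638, and 13.6, 14.4, 14.1 and 11.4 in SCNT-*Kdm* (−1.47 ± 0.33, adjusted p = 0.0108), and it was not called without SCNT-*Kdm4d* replicate 1 (−1.39). *Zscan4d* and *Zscan4a* had adjusted p of 0.0387 and 0.0386 at changes of less than 2-fold, −0.95 and −0.71. Both controls were far lower, at 33.0 and 12.6 for the summed list in CC_cont and 21.5 and 31.4 in SCNT-cont, and with controls subtracted none of the 9 was called and the median was −0.14. These genes are near-identical copies and only uniquely mapped pairs were counted, so reads of them may have been lost.

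The 25 MERVL-linked two-cell markers followed the same split. Their sums were 3110 and 3060 with RK-701, 2790 and 2210 with A366, 6780 and 6230 with UNC0638, 6350 and 6270 with *Kdm3a* and 3330 and 3880 with *Kdm4d*, and 2390 and 1520 in CC_cont and 2270 and 3050 in SCNT-cont. Between the arms 2 were lower, the deubiquitinase genes *Usp17la* and *Usp17ld*, 8% of the list against 0.853% of all genes, and 23 of 25 had a change below 0, with a median of −0.57. UNC0638 alone against SCNT-*Kdm* ran the other way, with 23 of 25 above 0 and a median of 0.64. Of the 25, 2 were called higher, beside 0.589% of all genes. CC_cont against SCNT-cont had a median of −0.42, with 19 of 25 below 0, and with controls subtracted none was called and the median was 0. Against SCNT-*Kdm3a* 11 were lower in CC_TG (beside 1.6% of all genes) and none higher (median −1). Against SCNT-*Kdm4d* 1 was lower (beside 0.415%) and the median was 0.06. *Kdm4d* against *Kdm3a* gave 5 lower (beside 0.178%) and none higher (median −0.93). *Usp17ld* held 3.32 to 7.31 in the RK-701 and A366 libraries, 32.3 and 33.9 with UNC0638, 31.9 and 28.2 with *Kdm3a* and 14.2 and 17.3 with *Kdm4d*. The highest and the lowest libraries of this gene thus both belonged to CC_TG, and its change over the pooled arms was −1.26 ± 0.28 (adjusted p = 0.0109). It was not called without SCNT-*Kdm4d* replicate 2 (−1.18), nor was *Usp17la* (−1.63 with all libraries) without SCNT-*Kdm3a* replicate 1 (−1.23). The *Usp17l* genes are near-identical copies as well.

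**Figure D4:**
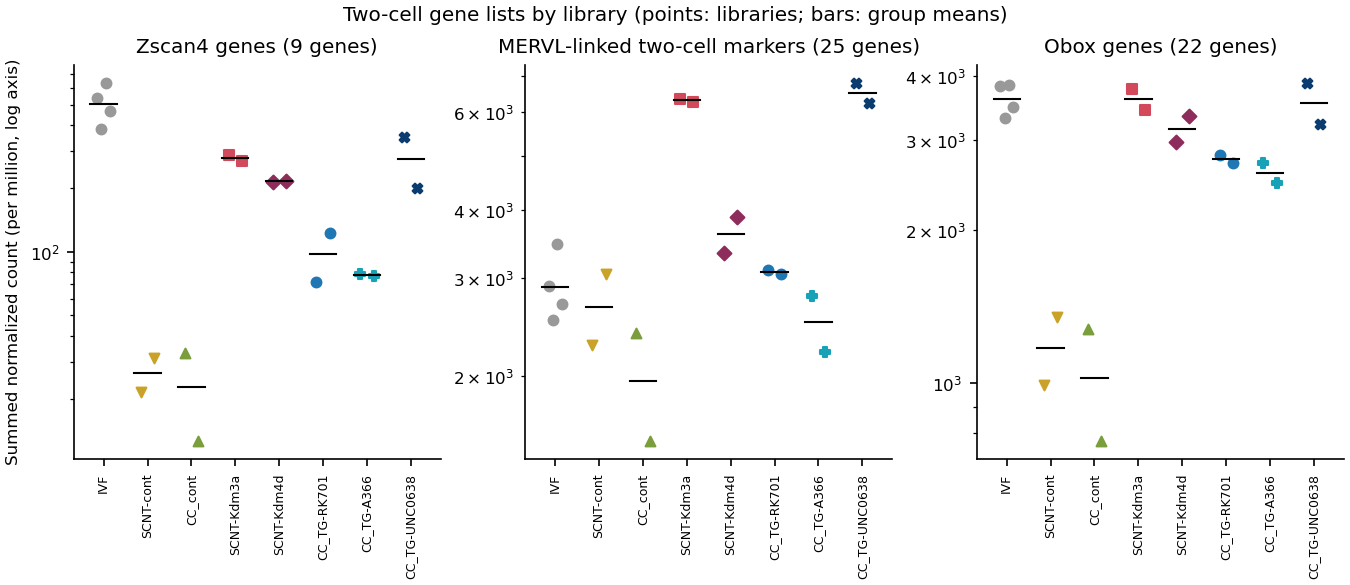
Summed normalized counts (CPM) of 3 lists of two-cell genes by group on a log axis, with 1 point per library and a bar at each group mean. For all 3 lists the RK-701 and A366 libraries lie below the UNC0638 libraries (72.2 to 123 against 201 and 350 for *Zscan4*). The injected libraries lie at 215 to 287 for *Zscan4*. For *Obox* the RK-701 and A366 libraries lie at 2470 to 2810, the UNC0638 libraries at 3880 and 3220 and the injected libraries at 2980 to 3780.

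Of the 22 *Obox* homeobox genes tested, none was called between the arms by edgeR, with 8 at an unadjusted p under 0.05 in the lower direction and none in the higher, and DESeq2 called 1. The summed level was 2470 to 3880 in CC_TG, 2980 to 3780 in SCNT-*Kdm* and 770 to 1350 in both controls, and the median change was −0.35. *Obox6* held 1150 to 1440 in CC_TG and 1420, 1310, 1150 and 1330 in SCNT-*Kdm* (log2 fold change −0.03), *Obox8* had −0.18 and *Obox3* −0.54 ± 0.17 (adjusted p = 0.0758). *Eif1a*, a translation initiation factor that the study names, had 0.17.

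The 3 inhibitors were given at the same dose and time, so that the co-treated groups can be compared directly, in 3 pairs. A366 and RK-701 differed in 0 genes when p values were adjusted within the pair (999 at an unadjusted p under 0.05; 0 calls by DESeq2) and in 3 when they were adjusted over the 3 pairs together. UNC0638 differed from RK-701 in 244 genes (0.946%), 173 higher (0.671%) and 71 lower (0.275%), and from A366 in 220 (0.853%), 190 higher (0.737%) and 30 lower (0.116%), and in 201 (0.779%) and 195 (0.756%) with the adjustment over the 3 pairs. The MERVL-linked markers gave 15 of 25 higher with UNC0638 than with RK-701 and none lower (median 1.93), and 16 higher than with A366 and none lower (median 1.94). *Usp17ld* was higher with UNC0638 by 2.94 (95% interval 1.96 to 3.92) than with RK-701 and by 2.64 (1.68 to 3.60) than with A366, and A366 minus RK-701 was 0.30 (−0.67 to 1.27). *Ajap1*, which encodes a membrane protein of adherens junctions, held 1.01 and 3.35 with RK-701, 2.36 and 3.32 with A366 and 14.7 and 15.3 with UNC0638, and was higher with UNC0638 by 2.77 (1.59 to 3.94) and 2.40 (1.25 to 3.54). For *Hormad1* no pair was called, and the intervals were −0.49 to 0.95 for A366 minus RK-701, −0.54 to 0.90 for UNC0638 minus RK-701 and −0.76 to 0.68 for UNC0638 minus A366. These intervals leave room for differences of up to about 2-fold.

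The lower genes included a maternal gene family, whose full membership was followed after its values were seen. *Tcl1b1* to *Tcl1b5* and *Tcl1*, which encode cofactors of the kinase AKT and lie in a cluster on chromosome 12 at 105146014 to 105222793, were all called lower. *Tcl1b4* held 123 and 97.4 with RK-701, 237 and 162 with A366, 123 and 272 with UNC0638, and 578, 485, 1020 and 781 in SCNT-*Kdm*, a change of −2.09 ± 0.25 (adjusted p = 3.76e-05). *Tcl1b3* changed by −1.79 (adjusted p = 9.13e-05), *Tcl1b1* by −1.55, *Tcl1b5* by −1.49, *Tcl1* by −1.16 and *Tcl1b2* by −1.07. The arms did not overlap for any of the 6. The controls differed in the same direction without a call, by −1.42 for *Tcl1b4*, −1.28 for *Tcl1b3*, −1.26 for *Tcl1b1*, −1.10 for *Tcl1b5*, −1.61 for *Tcl1* and −0.52 for *Tcl1b2*, and SCNT-cont itself was spread, at 180 and 424 for *Tcl1b4* against 157 and 67.3 in CC_cont. Both arms were above their own controls in all 6 genes, by 0.47 to 0.64 in CC_TG and 0.2 to 1.2 in SCNT-*Kdm*. With controls subtracted the differences were −0.66 for *Tcl1b4*, −0.50 for *Tcl1b3*, −0.29 for *Tcl1b1*, −0.39 for *Tcl1b5*, −0.55 for *Tcl1b2* and 0.45 for *Tcl1*. None of them was called, so the part of the actin drug in this difference cannot be told apart from that of the treatment. *Tcl1b2* was not called without CC_TG-UNC0638 replicate 1 (−0.99), and *Tcl1* was not called in 7 of the 10 fits without a library (−1.18 to −1.04 in those). *Omt2b*, named for oocyte maturation, held 1200 to 2320 in CC_TG and 2990, 2690, 5660 and 4650 in SCNT-*Kdm* (−1.20 ± 0.15, adjusted p = 6.23e-05; controls −0.81). Its neighbour *Omt2a* changed by less than 2-fold (−0.79 ± 0.13, adjusted p = 0.000865). None of the 40 oocyte-stored transcripts of a separate list was called by edgeR or DESeq2, with a median of −0.10 and 1 higher and 8 lower at an unadjusted p under 0.05.

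**Figure D5:**
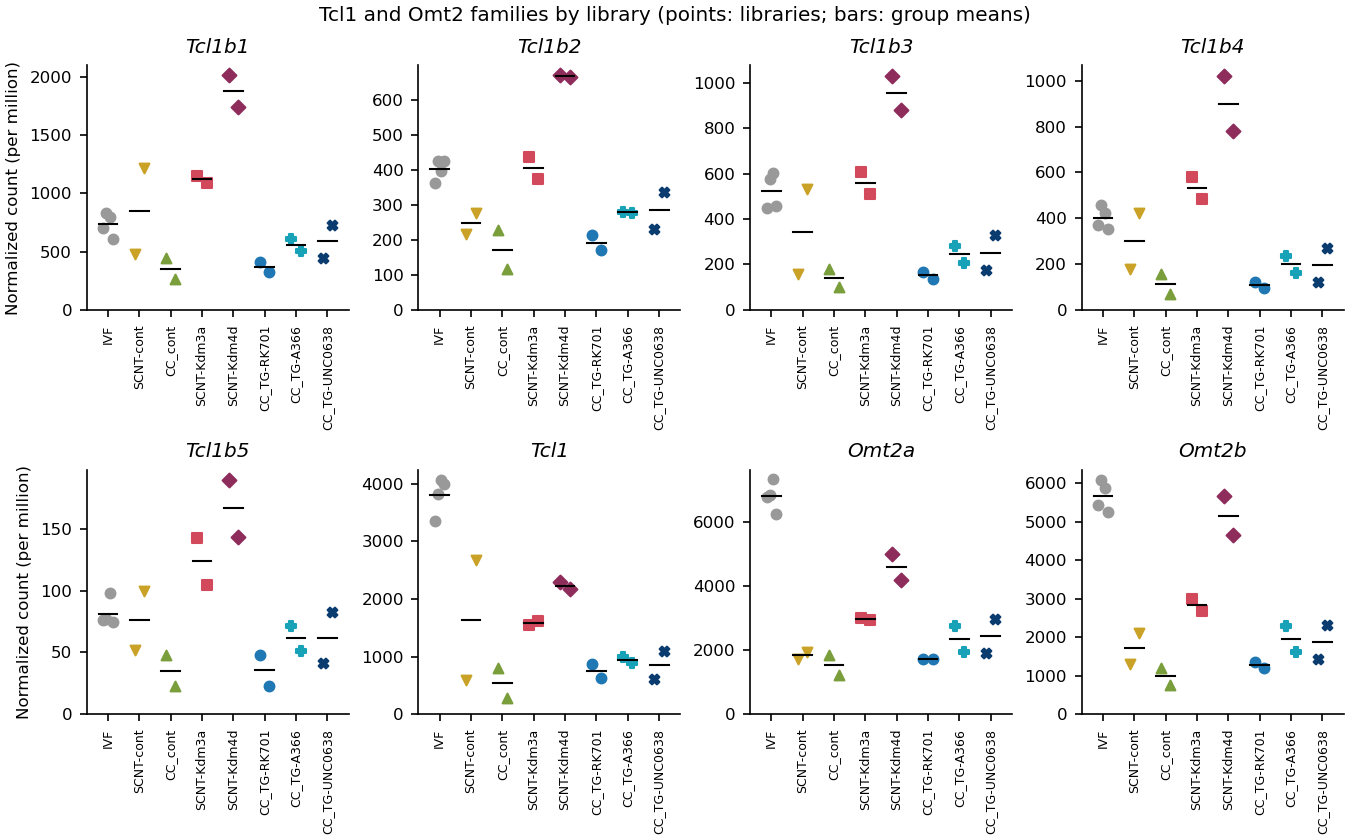
Normalized counts (CPM) of the *Tcl1* and *Omt2* families by group, with 1 point per library and a bar at each group mean. *Tcl1b4* lies at 97.4 to 272 in CC_TG and at 485 to 1020 in SCNT-*Kdm*, with SCNT-cont at 180 and 424 and CC_cont at 157 and 67.3.

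The protein-coding genes that were highest relative to SCNT-*Kdm*, among those with at least 10 reads in each CC_TG library and arms that did not overlap (91 genes met this), had diverse roles. *Syt17*, a synaptotagmin-like protein, held 1.69 to 3.77 in CC_TG and 0.0525, 0.171, 0.242 and 0.140 in SCNT-*Kdm*, at 1 to 3 reads per library (adjusted p = 0.000451). Its 230 reads in CC_TG and 8 in SCNT-*Kdm* gave a ratio of 20.8 per read on genes (95% exact counting interval 10.4 to 48.7), and the controls held 0.218 and 0.0932 in CC_cont and 0 in SCNT-cont. *Maf*, a bZIP transcription factor, held 0.929 to 4.12 against 0, 0, 0 and 0.492 (5.50 ± 1.10, adjusted p = 0.00453), and *Iyd*, an iodotyrosine deiodinase, 1.49 to 3.25 against 0, 0, 0.566 and 0.140 (5.22 ± 0.99, adjusted p = 0.0031). *F10*, coagulation factor X, held 2.55 to 4.73 against 0.525, 0.257, 0.242 and 0.211 (3.53 ± 0.62, adjusted p = 0.00158). The others were *Ppp1r3c* (a glycogen-targeting phosphatase subunit; 3.51), *Pmaip1* (the BH3-only protein NOXA; 3.46), *Kcnk2* (a two-pore potassium channel; 3.42), *Nipal4* (3.33), *Tbc1d10c* (a Rab GTPase-activating protein; 3.00), *G6pc* (glucose-6-phosphatase; 2.93), *Hmcn1* (an extracellular matrix protein; 2.91) and *Zkscan2* (2.74). *Kcnk2* held 1.81 to 7.59 in CC_TG and 0.420, 0.343, 0.323 and 0.421 in SCNT-*Kdm*. Each of the 12 was called in all 10 fits without a single library except *Nipal4*, which was lost without SCNT-*Kdm3a* replicate 1 (2.99) or SCNT-*Kdm4d* replicate 2 (2.93), and *G6pc*, which was lost without SCNT-*Kdm3a* replicate 2 (2.53), SCNT-*Kdm4d* replicate 1 (2.46), CC_TG-RK701 replicate 2 (2.76) or CC_TG-UNC0638 replicate 2 (2.69). The changes of *Ppp1r3c* and *G6pc* were 2.92 to 5.83 and 2.46 to 5.59 in these fits, highest without SCNT-*Kdm3a* replicate 2 and SCNT-*Kdm4d* replicate 2. Most of these genes lie at a few CPM in CC_TG. With controls subtracted none of the 12 was called. The differences were 0.02 for *Syt17*, 5.50 for *Maf*, 3.51 for *Iyd*, 1.86 for *F10*, 2.50 for *Ppp1r3c* and 5.66 for *Pmaip1*. They were 2.44 for *Kcnk2*, 1.65 for *Nipal4*, 3.54 for *Tbc1d10c*, 3.38 for *G6pc*, 0.75 for *Hmcn1* and 3.53 for *Zkscan2*. The controls differed by 2.16 for *Hmcn1* and −2.20 for *Pmaip1*, without a call. For *Syt17* they held too few reads for a control difference (4.23, not called), with 0 in SCNT-cont. Its 0.02 with controls subtracted therefore does not measure the part of the controls. Against the own control *Ppp1r3c* was at −0.26 in CC_TG and −2.76 in SCNT-*Kdm*.

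Among the genes that were lowest relative to SCNT-*Kdm* under the same rule (48 met it), *Olfr699*, an olfactory receptor, held 0.155 to 1.18 in CC_TG and 7.34, 3.17, 4.04 and 1.26 in SCNT-*Kdm* (−2.80 ± 0.62, adjusted p = 0.00937). *Adap2*, an ARF GTPase-activating protein, held 0.929 and 1.33 with RK-701, 0.143 and 0.339 with A366, 0.0786 and 0.0737 with UNC0638, and 2.68, 1.71, 1.45 and 1.48 in SCNT-*Kdm* (−2.64 ± 0.58, adjusted p = 0.00894). *Ajap1* was lower in CC_TG by 2.41 ± 0.34 (adjusted p = 0.000154), with 35.0, 28.9, 21.2 and 15.6 in SCNT-*Kdm*. CC_cont and SCNT-cont differed by −2.38 in this gene at 0.544 and 1.03 against 1.55 and 6.23, without a call. Both arms were above their own controls in *Ajap1*, by 2.59 in CC_TG and 2.62 in SCNT-*Kdm*. With controls subtracted the difference was −0.03. *Phf19* and *Pltp* were lower by 2.28 each, *Erbb4* by 2.27, *Gstt2* by 2.24, *Gstm6* by 2.14, *Psg16* by 1.87 and *Gnat2* by 1.79. They encode a Polycomb-associated protein, a phospholipid transfer protein, a receptor tyrosine kinase, a pair of glutathione transferases, a pregnancy-specific glycoprotein and a cone transducin. The calls on *Erbb4*, *Gstm6* and *Gnat2* were lost in 9, 9 and 8 of the 10 fits without a library (−2.40 to −2.08, −2.38 to −1.82 and −1.86 to −1.39 in those; *Gstm6* had −3.76 without CC_TG-UNC0638 replicate 2), that on *Phf19* in 6 (−2.30 to −2.13) and that on *Psg16* in 5 (−1.77 to −1.63). *Pltp* was lost without SCNT-*Kdm4d* replicate 2 (−2.20), CC_TG-RK701 replicate 2 (−2.11) or CC_TG-A366 replicate 2 (−2.27), *Olfr699* without replicate 1 of SCNT-*Kdm3a* (−2.43) or SCNT-*Kdm4d* (−2.27), and *Gstt2* without SCNT-*Kdm4d* replicate 2 (−2.15).

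Regulators of the early lineages gave 2 of 26 higher (7.69%, against 0.903% of all genes) and none lower, with a median of −0.05. *Esrrb*, an orphan nuclear receptor of pluripotent cells, held 15.5 and 15.3 with RK-701, 24.5 and 28.4 with A366, 14.5 and 14.3 with UNC0638 and 7.08, 6.77, 4.60 and 7.66 in SCNT-*Kdm* (1.46 ± 0.24, adjusted p = 0.00078), and the arms did not overlap. *Tfap2c*, which encodes a trophectoderm regulator, held 22.9 to 60 against 14.1, 20.9, 21.9 and 21.1 (1.08 ± 0.27, adjusted p = 0.0222), close to the 2-fold limit, and 6 of the 10 fits without a library did not call it (0.95 to 1.09 in those). With controls subtracted neither gene was called, at 0.86 for *Esrrb* and 0.28 for *Tfap2c*. The controls differed by 0.61 and 0.80 in these genes, without a call. Of 28 p53 targets 2 were higher (7.14%, against 0.903% of all genes), *Pmaip1* and *Plk2*, with a median of 0.22, and with controls subtracted none was called and the median was 0.01. *Pmaip1* held 3.17 to 11.4 in CC_TG and 1.31, 0.0857, 0.485 and 0.281 in SCNT-*Kdm* (adjusted p = 0.00151), against a mean of 50.6 in IVF embryos. *Plk2* held 19.4 to 53.1 against 18.4, 9.85, 15.8 and 9.90 (1.02 ± 0.29, adjusted p = 0.0398), and 7 of the 10 fits without a library did not call it (0.84 to 1.21).

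*Sfmbt2*, the Polycomb-group gene that is imprinted through maternal H3K27me3 and active in the placenta, was the called member of the 6 such genes (16.7% lower, against 0.853% of all genes). The median of the 6 was 0.09, with 4 of them above 0. *Sfmbt2* held 5.03 and 5.38, 6.30 and 3.18, and 4.4 and 6.19 with the 3 inhibitors in order, and 22, 14, 9.21 and 9.76 in SCNT-*Kdm*, so that all co-treated libraries were below all injected ones (−1.36 ± 0.30, adjusted p = 0.00956). Both arms were below their controls, which held 60.4 and 33.0 in CC_cont and 67.6 and 26.2 in SCNT-cont, and IVF embryos held a mean of 4.48. The change was −1.18 without SCNT-*Kdm3a* replicate 1, when *Sfmbt2* was not called. Of 53 actin and SRF-responsive genes, whose products or regulation involve the cytoskeleton that both drugs target, 1 was called lower and none higher (1.89%, close to the 1.76% of all genes), with a median of 0.06. This was the calponin gene *Cnn2*, at 0.215 to 3.91 in CC_TG and 3.78, 3.34, 8.08 and 3.58 in SCNT-*Kdm*, which overlap (−1.53 ± 0.39, adjusted p = 0.0241), and 5 of the 10 fits without a library did not call it (−1.49 to −1.18). Of the 25 cumulus cell genes tested, *Serpine2* was higher (1.25) and *Lgals1* lower (−1.07), 8% against 1.76% of all genes, with a list median of −0.33 and 17 of 25 below 0. *Serpine2*, a protease inhibitor, held 13.8 to 31.4 in CC_TG, 4.41 and 3.77 with *Kdm3a* and 25.9 and 11.5 with *Kdm4d* (2.34 against *Kdm3a* and 0.16 against *Kdm4d*), and it was not called without SCNT-*Kdm4d* replicate 2 (1.01). *Lgals1*, which encodes galectin-1, was not called in 8 of the 10 fits without a library (−1.22 to −0.80).

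The genes for the modifiers that the treatments act on were not called. *Ehmt2* held 21 to 26.4 in CC_TG and 16.0, 26.2, 26.7 and 25.8 in SCNT-*Kdm* (log2 fold change 0.04 ± 0.16), and *Ehmt1* 75.1 to 95.7 against 74.5, 82.6, 89.3 and 91.4 (−0.01 ± 0.15). *Kdm1a*, *Kdm4a*, *Kdm7a* and *Phf2*, which encode other H3K9 demethylases, had 0.13, −0.16, 0.09 and −0.48, none called. None of 22 H3K9 methyltransferase and partner genes, 11 demethylase genes, 27 deacetylase and acetyltransferase genes and 14 DNA methylation genes was called, with medians of −0.02, 0.03, −0.06 and 0.15 in edgeR's test. At an unadjusted p under 0.05 lay 2 higher and 4 lower methyltransferase and partner genes, 1 higher demethylase gene, 3 higher and 4 lower deacetylase and acetyltransferase genes and 1 higher DNA methylation gene, and DESeq2 called 1 deacetylase or acetyltransferase gene lower. None of 54 genes of ribosome biogenesis (median 0.03), 31 of interferon and RNA sensing (−0.09) and 24 of heat shock and chaperones (0.10) was called, with 7 higher and 3 lower, 2 and 3, and 5 and 4 at an unadjusted p under 0.05, and DESeq2 called none of these. With a median standard error of 0.47 over all genes, small differences were not detectable at this depth and number of libraries.

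The reprogramming-resistant genes (RRGs) that the study lists, 879 of them, were chosen by it on these libraries, as lower in SCNT than in IVF embryos, and their direction against controls is therefore not independent evidence. Between the arms 45 were higher and 29 lower in CC_TG (8.42%, against 1.76% of all genes), with a median of 0.05. Against the own control, 339 were higher and 7 lower in CC_TG (median 1.13), beside 3.61% and 6.63% of all genes. In SCNT-*Kdm* 216 were higher and 9 lower (median 0.84), beside 2.3% and 2.52%. With controls subtracted 1 was called, and the median was 0.24. All 879 were above CC_cont in IVF embryos, and 867 were above SCNT-cont. Of the 879, 745 were called above CC_cont and 568 above SCNT-cont, beside 1671 and 1758 of all 25792 genes. The choice of RRGs thus bore more on CC_cont, so these counts and medians do not compare the 2 treatments. By inhibitor, 37 RRGs were higher and 33 lower than in SCNT-*Kdm* with RK-701, beside 0.942% and 0.644% of all genes. With A366 29 were higher and 37 lower, beside 0.597% and 0.624%. With UNC0638 32 were higher and 2 lower, beside 0.589% and 0.178%. The RRGs with the largest changes were low in all SCNT libraries. *4930562F17Rik*, a transcript of unknown role, held 4.95 and 3.14, 2.58 and 1.76, and 3.38 and 3.02 with the 3 inhibitors in order, and 0, 0.343, 0 and 0.421 in SCNT-*Kdm*, without overlap (4.04), and 0 in all 4 control libraries. *Mapk8ip2*, a scaffold protein of JNK signalling, held 0.0774 to 0.838 in CC_TG and 0 in SCNT-*Kdm* and was at least 2.52-fold higher, *C1s1*, a complement protease, held 0.147 to 4.33 against 0 to 0.257, with 129 reads against 5 (ratio 18.7, 95% exact counting interval 7.79 to 58.4), and *Slco1b2*, an anion transporter of liver, held 0 to 4.48 against 0 in SCNT-*Kdm* and both controls (at least 5.58-fold higher). *Slco1b2* was at 0 in 2 of the 6 CC_TG libraries, so the arms overlapped. Its call was lost in 7 of the 10 fits without a library, that of *C1s1* in 5 and that of *Mapk8ip2* in 4, and *4930562F17Rik*, called in each, had 6.35 without SCNT-*Kdm4d* replicate 2. *Gm8104*, a predicted gene, held 0 to 0.716 in CC_TG and 3.10, 1.28, 0 and 2.18 in SCNT-*Kdm* (−4.39), and its change was −6.15 to −0.94 in the fits without a library, with −0.94 without SCNT-*Kdm4d* replicate 2 and the call lost in 7 of the 10.

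No difference between the arms in the distance to IVF embryos was found. The distance of a library to the IVF mean was 123 and 127 with RK-701, 119 and 123 with A366, 122 and 116 with UNC0638, 128 and 130 with *Kdm3a* and 117 and 118 with *Kdm4d*, against 137 and 163 in CC_cont and 153 and 139 in SCNT-cont. The means were 122 ± 3.67 (SD, n = 6) in CC_TG and 123 ± 6.72 (SD, n = 4) in SCNT-*Kdm*, a difference of −1.87 (exact two-sided permutation test, p = 0.567), and it was 0.389 without SCNT-*Kdm3a* replicate 2. Gene by gene, IVF embryos were nearer to CC_TG for 148 of the 233 higher genes (63.5%, beside 51.6% of all genes) and nearer to SCNT-*Kdm* for 138 of the 220 lower genes (62.7%, beside 48.4%). Among the 233 higher genes IVF lay above both arms for 92, below both for 36 and between them for 105. Over all 25792 genes these counts were 10325, 10316 and 5151. For *Hormad1*, *Rpl10l* and *Gata2* the IVF mean lay above both arms. For *Majin* it lay below both, at 0.91 against means of 11.2 in CC_TG and 4.01 in SCNT-*Kdm*. *Gata2*, a trophectoderm transcription factor on the RRG list, held 0.157 to 1.33 in CC_TG and 0, 0.0857, 0.0808 and 0 in SCNT-*Kdm*, with 73 reads in CC_TG and 2 in SCNT-*Kdm* (ratio 26.4, 95% exact counting interval 7.05 to 222, called), while IVF embryos held 7.53 to 13.0.

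X-linked genes were tested in a fit of all chromosomes, and SCNT embryos from cumulus cells are all female. Of 1010 genes 28 were called (2.77%), 21 higher and 7 lower in CC_TG, against 1.73% of the autosomal genes in that fit. The count was 13 without SCNT-*Kdm3a* replicate 1, 14 and 18 without SCNT-*Kdm4d* replicates 1 and 2, and 18 without CC_TG-UNC0638 replicate 1. *Xist*, the RNA that silences an X chromosome, held 8.33 to 44.4 in CC_TG, 42.1 and 49.3 with *Kdm3a* and 20.4 and 18.1 with *Kdm4d*, and was not called (−0.29 ± 0.28, adjusted p = 0.658). *Itm2a*, a membrane protein, held 2.58 to 5.44 in CC_TG and 0.734, 0.343, 1.45 and 0.140 in SCNT-*Kdm* (2.44 ± 0.51, adjusted p = 0.00654), without overlap. *Pramel3*, of the PRAME family with near-identical copies, held 9.43 to 28.0 against 0, 3.34, 7.19 and 3.37 (2.50 ± 0.63, adjusted p = 0.0232), and *Xpnpep2*, an aminopeptidase, 1.57 to 3.59 against 0.787, 0.0857, 0.323 and 0.281 (2.59 ± 0.70, adjusted p = 0.0342). *Pramel3* was not called by DESeq2 (2.44) nor without SCNT-*Kdm3a* replicate 1 (1.93), SCNT-*Kdm4d* replicate 1 (2.82) or 2 (2.28) or CC_TG-UNC0638 replicate 1 (2.39), and it had 6.18 without SCNT-*Kdm3a* replicate 2, while *Xpnpep2* was not called in 9 of the 10 fits without a library (2.22 to 2.71).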

How the data were processed

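RNA-seq libraries of pools of late two-cell embryos were analysed from the read counts that the authors deposited. Per the file headers and the study's methods, the authors used Trimmomatic for trimming and STAR for alignment to mm10, and counted uniquely mapped pairs on exons per gene with featureCounts 1.6.2 without strand, so that reads of a gene and its antisense partner cannot be told apart and reads of near-identical copies may be lost. Rows of transposable elements in the same table were used only for MERVL-int and the related families MERVL_2A-int and MT2_Mm.

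The 25 libraries were fitted together with edgeR 4.0.16 (R 4.3.3) as 11 groups, with TMM scaling and a quasi-likelihood test. The test covered the 25792 autosomal genes whose reads averaged 1 or more over the libraries, without *Kdm3a* and *Kdm4d*. The arms were compared as the mean over the 3 CC_TG groups minus the mean over the 2 SCNT-*Kdm* groups, and p values were adjusted by the Benjamini-Hochberg method over all genes. Genes were called at an adjusted p under 0.05 and a change of more than 2-fold, the limits that the study gives in its results for genes of embryonic genome activation. The authors used DESeq2, and their methods state no such limits. Levels are CPM on the TMM scale, and errors of log2 changes are standard errors. Folds of genes with 0 reads in every injected library are lower bounds against 3 reads per library, and those with 1 to 3 reads in such libraries are ratios of summed reads with 95% exact conditional binomial intervals, which cover counting error only. The 10 libraries held at least 13240378 reads on genes. Distances used log2(TPM + 1), with TPM made from the counts and lengths in the deposited table, and were tested with an exact permutation test.

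The named genes are the 12 protein-coding genes with the largest change in each direction among those called, provided that every library of the higher arm held 10 reads or more and that the arms did not overlap, at most 6 called members per list, the 3 X-linked genes with the largest change under these conditions with *Xist*, genes called between the controls and genes that the study names. *Sycp1*, *Tex12*, *Tdrkh* and *Majin*, the other members of the *Tcl1* family and *Omt2a* and *Omt2b* were chosen after their values were seen. The members and lists were chosen with earlier results of these data known. Libraries with the same replicate number did not deviate together (correlations of −0.063 to 0.0484 over 10 pairs of groups), so that the numbers pair no libraries. No 2 libraries of a group agreed within sampling noise. Scripts were tested on simulated data. Alternatives were DESeq2 1.42.0, RLE factors, other filters, other sets of libraries, a replicate block and leaving out each library or group.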

Additional observations from a re-analysis of the deposited data

Results flagged for a closer look

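Single libraries stood apart from the rest of their arm in 13 of 200 sets of values examined, by a gap test that picks out about 1 in 20 such sets by chance. Highest in SCNT-*Kdm* were SCNT-*Kdm4d* replicate 2 for *Maf* (0.492, others 0) and *Cox7b2* (0.702, others 0 to 0.105), SCNT-*Kdm3a* replicate 1 for *F10* (0.525, others 0.211 to 0.257) and SCNT-*Kdm4d* replicate 1 for *Cnn2* (8.08, others 3.34 to 3.78), all in normalized counts (CPM). Highest in CC_TG were CC_TG-UNC0638 replicate 1 for *Zscan4b* (1.41), *Zscan4f* (22.4) and *Gstt2* (0.864), CC_TG-UNC0638 replicate 2 for *Plk2* (53.1), CC_TG-A366 replicate 1 for *Gm8104* (0.716) and CC_TG-RK701 replicate 2 for *C1s1* (4.33). SCNT-*Kdm3a* replicate 1 was lowest in its arm for *Tfap2c* (14.1, others 20.9 to 21.9), *Ehmt2* (16.0, others 25.8 to 26.7) and the summed deacetylase and acetyltransferase genes (2570, others 2730 to 2760).

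Effects differed between groups for *Hormad1*, by 3.47 on the log2 scale between the arms with each relative to its own control, and for *Elovl4*, by 3.22, in edgeR's test of that difference. Within the arms, UNC0638 differed from RK-701 in 244 genes and from A366 in 220, and *Kdm4d* from *Kdm3a* in 82, in direct tests. Outside the genes, reads on copies of MERVL-int, the internal part of the MERVL provirus, reached 7010 RPM, relative to the reads on genes, in SCNT-*Kdm3a* replicate 1, above the 3210 to 4820 of the 4 control libraries. They were 5640 in SCNT-*Kdm3a* replicate 2, 4940 and 5160 with *Kdm4d*, 3460 and 3800 with RK-701, 4550 and 3910 with A366 and 5610 and 6900 with UNC0638. IVF libraries held 7460 to 7840. Copies of the related MT2_Mm held 4510 and 3080 with *Kdm3a*, 2640 and 2710 with *Kdm4d*, 1690 to 2470 with RK-701 and A366 and 3740 and 4880 with UNC0638. The controls held 1780 to 3590 on MT2_Mm. On MERVL_2A-int the arms held 159 to 310 and the controls 215 to 301. These differences were not tested.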

How the results depend on the processing

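The count of 453 genes between the arms was 663 with DESeq2, which held 444 of them in the same direction, 449 with RLE factors and 760 with no filter on low counts. It was 176 in the 2-arm fit, 233, 255 and 702 without the groups of RK-701, A366 and UNC0638, 176 and 733 without those of *Kdm3a* and *Kdm4d*, and 2 with each arm less its own control. Leaving out single libraries gave 252 to 488. With only the compared libraries it was 517, and with the replicate block added to that fit, whose numbers pair no libraries, 520. Less its own control, the count of 2 became 98 with DESeq2, 154 with no filter and 1 to 56 without single libraries. Between the controls, the count of 3 became 57 with DESeq2, 104 with no filter, 10 with only the compared libraries, 2 with the replicate block added to that fit, and 1 to 208 without single libraries. DESeq2 gave 309 calls against *Kdm4d*, 719, 611 and 380 for RK-701, A366 and UNC0638 against SCNT-*Kdm*, 316 between the mRNAs, and 470 and 420 for UNC0638 against RK-701 and A366. X-linked calls ranged over 13 to 32 without single libraries.

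With DESeq2, 1 *Obox* gene, 1 of the germline genes the study names, 2 actin and SRF-responsive genes and 1 deacetylase or acetyltransferase gene were called. Less the own control, 1 germline gene and 1 RRG were called, and 0 of the *Zscan4*, MERVL-linked, pluripotency, actin, p53, imprinted and cumulus lists. The sign turned in that comparison for *Zscan4b* (0.77), *Obox6* (0.12), *Obox8* (0.34), *Kdm4a* (0.03), *Kdm7a* (−0.03), *Phf2* (0.02), *Cblb* (−3.93), *Sva* (3.82), *Gm9519* (0.95) and *Tcl1* (0.45). It also turned without a group for *Obox6* (0.01 without A366, 0.04 without *Kdm3a*), *Ehmt1* (0.03 without RK-701, 0.09 without *Kdm4d*), *Ehmt2* (−0.12 without *Kdm3a*), *Kdm1a* (−0.04 without *Kdm4d*) and *Sva* (0.05 without *Kdm3a*). Without single libraries it turned for *Obox6* (−0.08 to 0.02), *Ehmt1* (−0.05 to 0.02), *Ehmt2* (−0.12 to 0.24) and *Kdm4a* (−0.31 to 0.02). The cause was not tested. The distance between the arms stayed past the threshold at 8.74 to 18.8 under the other scalings and 8.51 to 12.8 without single libraries. The difference in distance to IVF ranged over −4.87 to −0.479 under the other scalings and −4.06 to 0.389 without single libraries. Groups of 2 libraries and the spread of the untreated controls limit what could be resolved, most of all when controls were subtracted.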
